A study of Drosophila melanogaster with 2 samples.

Results

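The regions described here are 377 ChIP-seq peaks of the fly protein CG4730 whose summits lie at autosomal gene starts in sequence that is poor in A and T. A peak was a member if its summit lay within 500 bp of an annotated transcript start, was not between a pair of divergent protein-coding starts at most 500 bp apart, and had less than 65% A or T in the window that reached 50 bp to each side of it. The 377 peaks were drawn from 3571 peaks called on the pooled replicates, of which 2854 lay on the autosomal arms. By arm, 90 members lay on 2L, 97 on 2R, 82 on 3L and 108 on 3R. Chromosome 4 held 2 pooled peaks and Y none, and none of them was a member. The nearest start belonged to 363 different genes, and it was protein-coding for 333 members (88.3%), a noncoding RNA for 34, an snRNA for 4, a snoRNA for 3, a tRNA for 2 and a pseudogene for 1. For 62 members (16.4%) starts of more than 1 gene lay within 500 bp.

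The single group of the study consisted of whole Drosophila melanogaster embryos collected at 0 to 24 hours, of the strain CG4730-GFP. These transgenic flies carried CG4730 as a fusion with eGFP, a green fluorescent protein, and chromatin fragments were recovered with an antibody to GFP, so the tagged protein was read and not CG4730 itself. There were 2 biological replicates, each of whole embryos, in which all cell types and stages up to 24 hours were mixed, so weak binding in many cells and strong binding in few cannot be told apart. The labels name no untagged or untreated group, and the control library was not analysed here. With 1 group and 2 replicates no test between conditions was possible, so every comparison below is a description and none shows that a feature is particular to these peaks.

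A core promoter is the short stretch around a transcription start where RNA polymerase II is assembled. Fly core promoters differ in sequence: some carry a TATA box, many carry an initiator at the start itself, and genes of the translation machinery often use a pyrimidine-rich initiator called TCT. Promoters of widely expressed genes often carry the DRE, the site of the factor Dref, while CTCF is a zinc finger protein found at fly insulators and near gene starts.

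The summit windows of strong members are shown first, because they differ in sequence although the rule took all of them for low A and T. Each window is the stretch of dm6 that reaches 50 bp to each side of the summit, printed 5′ to 3′ in the direction of the nearest transcript, and capitals mark a match to ACAGTG on either strand. They lie at chr3R:29214400-29214500 on the plus strand for lncRNA:CR31044, at chr3R:31384217-31384317 on the plus strand for CG1607, at chr3L:1668716-1668816 on the minus strand for RpL23A and at chr2L:15068104-15068204 on the minus strand for vig. All 4 lie outside annotated UTRs. The noncoding RNA lncRNA:CR31044 and CG1607 have no role given here, RpL23A encodes a protein of the large ribosomal subunit, and vig encodes a component of the RNA interference machinery.
lncRNA:CR31044: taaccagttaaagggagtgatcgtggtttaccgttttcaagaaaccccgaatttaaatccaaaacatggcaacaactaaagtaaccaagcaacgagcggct
CG1607: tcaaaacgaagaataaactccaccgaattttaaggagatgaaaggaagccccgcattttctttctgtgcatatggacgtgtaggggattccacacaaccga
RpL23A: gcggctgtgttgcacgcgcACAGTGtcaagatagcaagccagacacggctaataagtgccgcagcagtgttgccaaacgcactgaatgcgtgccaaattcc
vig: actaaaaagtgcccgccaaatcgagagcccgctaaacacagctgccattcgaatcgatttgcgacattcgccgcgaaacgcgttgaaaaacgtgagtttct

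A CTCF core match, which on 1 strand reads AG, then A or G, then G or T, then GGCG, marked a small set of members. Windows of 3 of them are shown, which lie at chr3R:7810271-7810371 on the plus strand for sgll, at chr3R:29717069-29717169 on the minus strand for the odorant-binding protein gene Obp99b, and at chr3R:7346572-7346672 on the plus strand for nxf4, of the nuclear RNA export factor family. Capitals mark the core on either strand, and the windows of Obp99b and nxf4 hold it more than once.
sgll: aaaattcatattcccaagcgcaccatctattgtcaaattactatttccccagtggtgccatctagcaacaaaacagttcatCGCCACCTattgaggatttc
Obp99b: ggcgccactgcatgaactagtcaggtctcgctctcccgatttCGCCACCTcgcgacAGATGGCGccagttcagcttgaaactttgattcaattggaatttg
nxf4: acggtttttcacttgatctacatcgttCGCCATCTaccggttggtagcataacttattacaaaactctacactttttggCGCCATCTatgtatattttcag

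The DRE is the palindrome TATCGATA. It is in capitals in the windows of eEF1gamma, a subunit of the translation elongation factor 1 complex, at chr3R:29220092-29220192 on the plus strand, and of p53, the tumour suppressor homologue, at chr3R:23054071-23054171 on the minus strand.
eEF1gamma: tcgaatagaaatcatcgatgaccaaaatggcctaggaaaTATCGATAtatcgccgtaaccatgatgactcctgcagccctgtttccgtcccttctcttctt
p53: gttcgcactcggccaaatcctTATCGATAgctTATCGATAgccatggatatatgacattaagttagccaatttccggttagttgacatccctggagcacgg

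The word ACAGTG was the most frequent of the sequences shown here. It is in capitals in the windows of Ac78C, an adenylyl cyclase gene, at chr3L:21171986-21172086 on the minus strand, and of Lkb1, a protein kinase gene, at chr3R:13676287-13676387 on the plus strand.
Ac78C: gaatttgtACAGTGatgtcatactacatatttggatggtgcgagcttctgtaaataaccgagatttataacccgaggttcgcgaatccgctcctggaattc
Lkb1: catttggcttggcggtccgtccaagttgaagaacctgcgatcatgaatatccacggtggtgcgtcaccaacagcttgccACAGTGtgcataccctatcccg

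Ribosomal protein genes formed the gene group with the largest share of members among the lists examined. Windows of 3 of them lie at chr3L:13041667-13041767 on the plus strand for RpS4, at chr2L:4458348-4458448 on the minus strand for RpL27A and at chr3L:2587366-2587466 on the plus strand for RpL8. None of these 3 windows holds the DRE, ACAGTG or the CTCF core, so no letters are in capitals. RpS4 belongs to the small ribosomal subunit and RpL27A and RpL8 to the large one.
RpS4: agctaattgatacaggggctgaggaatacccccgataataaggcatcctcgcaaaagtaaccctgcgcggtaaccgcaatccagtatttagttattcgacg
RpL27A: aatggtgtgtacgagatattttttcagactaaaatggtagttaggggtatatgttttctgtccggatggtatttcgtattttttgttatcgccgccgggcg
RpL8: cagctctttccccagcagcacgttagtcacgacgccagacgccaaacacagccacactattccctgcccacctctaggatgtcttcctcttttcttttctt

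The signal of the members was lower than that of other promoter peaks. The authors' deposited signal value, whose unit is not stated, had a median of 96.2 over the 377 members in the pooled list, with quartiles of 72.1 and 137 and a range of 2.48 to 1331. The median was 146 over 507 autosomal promoter peaks with at least 65% A or T that were chosen by the same rule otherwise, here called AT-rich. It was 143 over 402 peaks between divergent coding starts and 107 over all autosomal peaks. The ratio of the first 2 medians was 0.660. In the replicates' own lists the members had median signals of 48.3 in replicate 1 and 52.0 in replicate 2 (mean 50.1 ± 2.62, SD, n = 2). The AT-rich peaks had medians of 72.4 and 74.1 there (73.3 ± 1.23, SD, n = 2). The members were thus below the AT-rich peaks in each replicate, by more than the spread between the replicates. Of the members, 28 (7.43%) were among the 300 strongest pooled peaks, against 82 (16.2%) of the AT-rich peaks.

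Some members nevertheless ranked among the strong peaks of the experiment. The strongest lay near the starts of 2 genes on 2R, 74 bp downstream of the start of asRNA:CR45928, an antisense RNA gene, and 103 bp upstream of that of eIF6, a translation initiation factor. Its pooled signal was 1331, and its signal was 723 in replicate 1 and 612 in replicate 2 (mean 668 ± 78.1, SD, n = 2). CG1888 followed, with 466 and 513 in the replicates, for a summit 234 bp upstream of its start. The summit at Sox14, which encodes an HMG-box transcription factor, was 254 bp upstream and had signals of 457 and 418. These 3 peaks lay on 2R, each replicate placed them far above the median member, and the differences between the replicates were small beside that gap.

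At tank the summit was 131 bp downstream of the start, with signals of 406 and 409. At Sesn, the fly sestrin, a stress-responsive regulator of the TOR pathway, it was 214 bp upstream, with 349 and 418. At CG5098 it was 142 bp upstream, with 336 and 375. Replicate 2 was the higher for all of these 3, and by the widest margin at Sesn. The peak upstream of lncRNA:CR31044 gave 305 and 320, that of CG1607 gave 292 and 276, and that of CG9399, a summit 51 bp downstream of the start in the 5′ UTR, gave 280 and 275. RpL23A gave 258 and 304 from a summit 112 bp upstream in a window with 44.6% A or T, the lowest share among the 15. It was the only ribosomal protein gene among the 15 strongest members found in both replicates.

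Trmt6, a subunit of a tRNA methyltransferase, had signals of 291 and 255 from a summit 76 bp downstream. Alg3, an enzyme of N-glycan assembly, had 268 and 255 from a summit 68 bp upstream, and vig had 220 and 294 from a summit 76 bp upstream. vig differed most between the replicates in relation to its level among the 15 genes, with a mean of 257 ± 52.4 (SD, n = 2). Trp1, a component of protein translocation into the endoplasmic reticulum, had 232 and 250, and lncRNA:CR44810 had 219 and 248. In the plot of the strongest members the replicates' points do not part by side, since replicate 1 is the higher for some genes and replicate 2 for others.

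**Figure D1:**
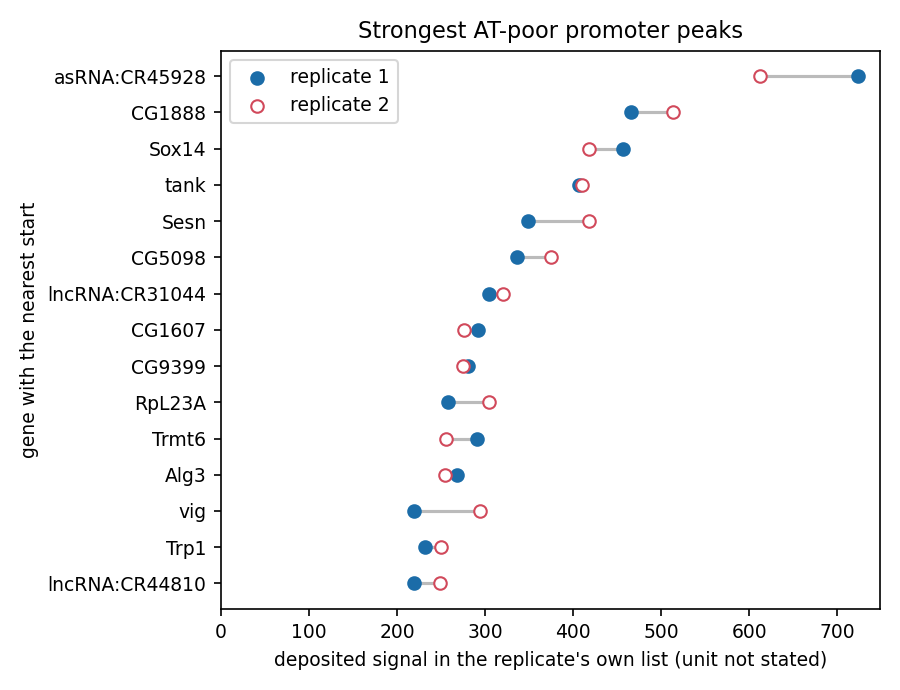
Deposited signal (horizontal axis, unit not stated) of the 15 strongest members found in both replicates' own peak sets, named by the gene with the nearest start; filled points are replicate 1 and open points replicate 2. The peak at asRNA:CR45928 lies at 723 and 612, and the others lie between 219 and 513.

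Members were found again in the replicates less often than other peaks at starts. Of 377 members, 150 overlapped a peak of both replicates' own thresholded sets by at least 1 bp, which is 39.8% (Wilson 95% interval 35.0 to 44.8, counting error only), where 48.2% of all autosomal pooled peaks did. The share was 61.3% (311 of 507) of the AT-rich peaks and 62.9% (253 of 402) of the peaks between divergent starts. Neither replicate's own set held 109 members (28.9%), against 61 (12.03%) of the AT-rich peaks and 23.5% of all autosomal pooled peaks. A member found in 1 set alone was more often in that of replicate 2 (74 members) than in that of replicate 1 (44 members). All autosomal pooled peaks leaned the same way (444 and 364), as did the AT-rich peaks (78 and 57). Those between divergent starts did not (48 and 49).

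The recovery of members followed their signal closely. The own sets are thresholded lists from the same libraries that gave the pooled signal, so such a rise is in part built in. With the members ordered by pooled signal, 2.11% of the weakest 95, with signals of 2.48 to 72.1, were in both own sets, and 3.19% of the next 94, up to 96.2, were. The share was 56.4% of the following 94 and 97.9% of the strongest 94, with signals of 137 to 1331. Most of the members below the median were therefore called on the pooled replicates and not in both replicates alone, while nearly all of the strongest 94 were. The peak lists give no read depth for either replicate.

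Levels in the replicates were also less alike than for other promoter peaks. Each replicate's ranked list, which holds weaker peaks too, gave both signals for 364 members, and Spearman's rho between the replicates over them was 0.646. It was 0.844 over 490 AT-rich peaks, as a description across peaks that share their libraries. The AT-rich peaks had higher pooled signals, with quartiles of 94.8 and 240, and rho was not compared at like signal. Within the groups of members by pooled signal, rho was −0.366, −0.590 and −0.375 from the weakest on and 0.795 in the strongest. Grouping by a signal that pools both replicates bears on these values. The median fold between the replicates was 1.30 for the members and 1.21 for the AT-rich peaks, and it exceeded 2 for 44 members (12.1%) and 32 AT-rich peaks (6.53%). No ranked peak overlapped 12 of the members in replicate 1 and 1 in replicate 2.

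**Figure D2:**
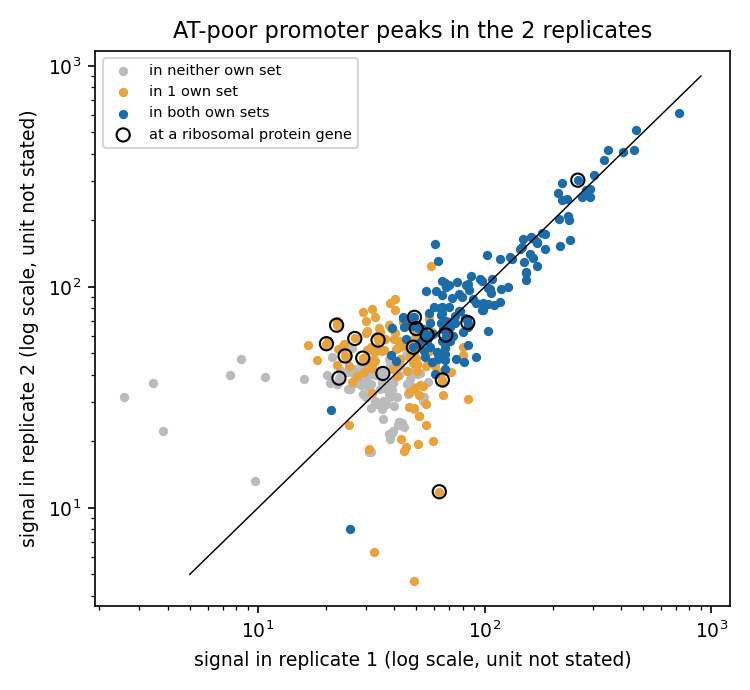
Deposited signal of each member in replicate 1 (horizontal, log scale) and replicate 2 (vertical, log scale), for the 364 members with both, coloured by how many of the replicates' own sets hold the peak; circles mark the peaks at ribosomal protein genes and the line marks equal signal. Above a signal of 100 the points lie nearer to the line than below it, where they scatter to both sides.

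A tail of 17 members had pooled signals under 20. Of these 17, 16 overlapped another pooled peak, and all 17 lacked a replicate peak with a summit within 100 bp in at least 1 replicate. Among all members 44 overlapped another pooled peak, and 34 AT-rich peaks did. Recovery was scored by overlap, so a replicate peak at the neighbour can count for such a member. The weakest members were the peaks at Tim17a1 (3.39), CG9205 (3.16), Agpat4 (2.86) and CG1271 (2.48), the first encoding a mitochondrial import protein and Agpat4 an acyltransferase. At CG1271 the overlapping replicate peaks had signals of 38.8 and 64.9, but their summits lay 200 and 184 bp away. Where the summits lie that far apart, the replicate value is that of a summit at another position, and none of the 17 was in both own sets. Over all members the summits of pooled and replicate peaks lay a median of 17 bp apart in replicate 1 and 15 bp in replicate 2, and 41 members had a replicate summit that was missing or over 100 bp away.

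Summits lay closer to the start, and more often past it, than at AT-rich promoters. The summit was upstream of the nearest start in 261 members (69.2%) and downstream in 116, while 432 of the AT-rich peaks (85.2%) were upstream. The median distance was 138 bp, against 192 bp for the AT-rich peaks, and the median signed position was −74 bp against −160 bp. Within 50 bp of a start lay 73 members (19.4%), against 18 AT-rich peaks (3.55%). More than 100 and up to 250 bp upstream, where 230 AT-rich peaks (45.4%) lay, there were 98 members (26.0%). The annotated start was inside the called peak for 213 members (56.5%) and for 181 AT-rich peaks (35.7%). The rule split these classes by base composition. At 500 bp from the summit both classes held more A and T upstream than downstream, so position is not independent of the rule.

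**Figure D3:**
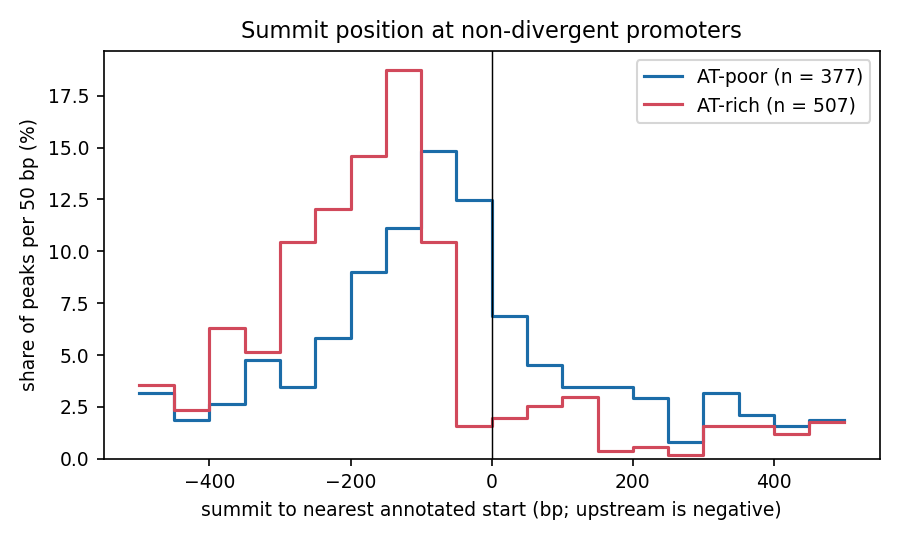
Share of peaks per 50 bp (vertical axis, %) against the position of the summit relative to the nearest annotated start (horizontal axis, bp, upstream negative), for the members (AT-poor, n = 377) and the AT-rich promoter peaks (n = 507). The members have their highest bin, 14.9% of peaks, from 50 to 100 bp upstream, and the AT-rich curve is higher from 100 to 250 bp upstream.

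By annotation, the summit lay outside genes for 152 members (40.3%), in an intron for 92 (24.4%), in a 5′ UTR for 69 (18.3%), in an exon of a noncoding gene for 31, in a coding exon for 28 (7.43%) and in a 3′ UTR for 5. The AT-rich peaks had 35 summits (6.90%) in a 5′ UTR and 0 in a coding exon, which with 507 peaks allows a share of up to 0.592%. Of the 116 downstream summits of members, 54 lay in a 5′ UTR and 23 in a coding exon. The rule chose the members for their base composition, and exons and introns differ in it, so these shares are not independent of the rule. Position also moved with signal: 47.4% of the weakest 95 members were upstream, then 70.2%, 81.9% and 77.7% of the stronger groups of 94. In the replicates' own sets, where the rule gave 207 members in replicate 1 and 260 in replicate 2, 74.9% and 76.9% of them were upstream.

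The base composition of the members was low in A and T at the summit by choice, with a median of 56.4% and a range of 29.7% to 64.4%. What the rule did not use is the sequence around it. A window of the same width centred 500 bp upstream held 59.9% ± 10.5 A or T (SD over 377 peaks) and one centred 500 bp downstream 54.1% ± 9.83, and the AT-rich peaks had nearly the same flanks, with 59.1% and 53.4%. In stretches of 21 bp the members' mean share was 62.0% at 100 bp before the summit, 54.4% at the summit and 54.6% at 100 bp after it. The AT-rich peaks went from 63.7% to 74.6% and back to 57.4%. Both classes thus had more A and T before the summit than after it, and the values at the summit itself were set by the rule.

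**Figure D4:**
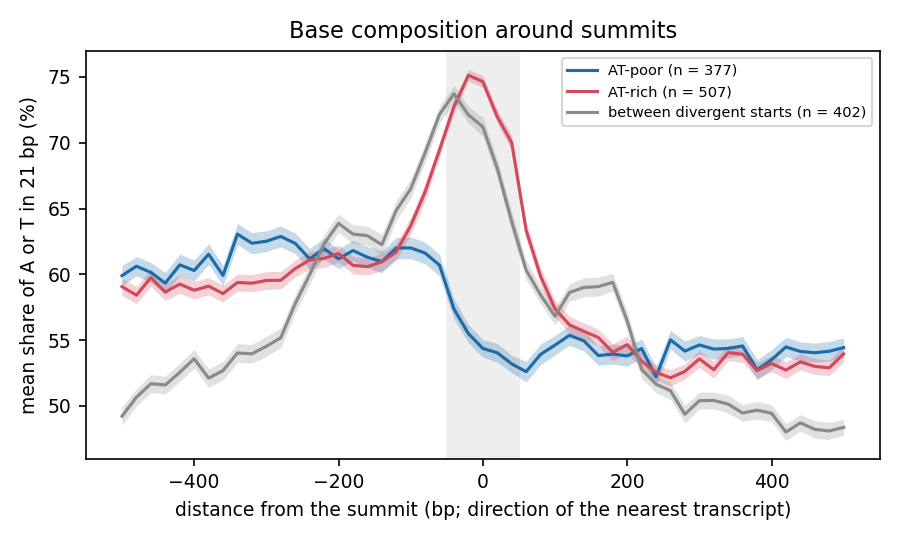
Mean share of A or T in 21 bp (vertical axis, %) against the distance from the summit (horizontal axis, bp, in the direction of the nearest transcript) for members, AT-rich promoter peaks and peaks between divergent starts; shading around a line is the standard error over peaks, and the grey band is the window that the rule used. Inside the band the classes differ by construction, the difference reaches a little past it (52.6% and 63.3% at 60 bp after the summit), and from 120 bp outwards members and AT-rich peaks run closer together.

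Among the members, a lower share of A and T went with a lower signal. The 85 members under 50% A or T had a median pooled signal of 74.0, and 22.4% of them were in both own sets. For 78 members from 50 to 55% the values were 90.0 and 35.9%, for 100 members from 55 to 60% they were 102.5 and 47.0%, and for 114 members from 60 to 65% they were 112 and 49.1%. Spearman's rho between the share of A or T and the signal was 0.274 over the 377 members and 0.137 over the 150 found in both replicates. At the limit of the rule, 30 members just inside it had 64.4% A or T and a median signal of 108. They include Sesn (732) and CG9399 (565). The 29 promoter peaks just outside it had 65.3% and a median of 113, among them PNPase (1309) and Fhos (515), so the limit cut through a continuous range.

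Motifs were searched on both strands in the windows reaching 50 bp to each side of the summit. Windows of that width centred 500 bp to each side, called flanks, were set beside them, with no limit on their A and T. So were 9365 windows under 65% A or T at coding starts without a peak, centred 74 bp upstream. Starts of the same gene that lie close together gave overlapping windows, which were counted separately. ACAGTG was in 55 of 377 member windows, 14.6% (Wilson 11.4 to 18.5). It was in 4.51% of the flanks, 5.20% of the starts without a peak, 4.73% of the AT-rich peaks and 6.72% of the peaks between divergent starts. The word was chosen after these data had been seen, so its share is a description of the set that showed it. It was in 14.0% of the members built from replicate 1's own set and in 15% of those from replicate 2's. These sets come from the same libraries as the pooled list and share peaks with it, so these shares give the word no separate support. Autosomal peaks over 500 bp from a start with as little A and T held it in 10.9% of 671 windows. The strongest members with it were RpL23A (561 pooled) and chn (355), whose signals were 216 in replicate 1 and 153 in replicate 2. CG7737 followed with 315 in the pooled list. Over the same groups by signal the share ran 14.7%, 17.0%, 18.1% and 8.51% from the weakest to the strongest, so the word did not mark the strongest peaks. Its match lay a median of 24.5 bp from the summit, in a window that reaches 50 bp to each side.

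Longer words were ranked in the same member windows as ACAGTG, so letters that they share with it give it no separate support. Of all 8-mers ranked on the arms of chromosome 2 by the share of members minus the share of flanks, 3 were tied for first place. CACAGTGG was in 7 of 187 members there (3.74%) and in 6 of 190 on the arms of chromosome 3 (3.16%), where 0.526% of flanks held it. CACTGTGC was in 8 of 187 (4.28%) and in 7 of 190 (3.68%), also with 0.526% of flanks. TTGGAAAA was in 9 of 187 (4.81%) but in 1 of 190 (0.526%), below the 1.84% of the flanks there. The first pair overlap in letters, since both hold ACAGTG or its reverse complement, and these were the words that came back on the other arms. The strongest members with CACAGTGG were CG7737 (143 and 149 in the replicates), CG43102 (34.3 and 65.1), SREBP (37.7 and 47.0), the gene of a lipid regulatory factor, and red (53.9 and 31.8). In replicate 1's own set 0.909% of the chromosome 3 members held CACAGTGG and in replicate 2's 3.17%, shares that rest on few windows.

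The CTCF core was in 20 member windows, 5.31% (Wilson 3.46 to 8.05), and in 0.197% of AT-rich peaks, 0.249% of peaks between divergent starts, 0.531% of the flanks and 1.22% of the starts without a peak. It was also chosen after the values had been seen. Autosomal AT-poor peaks over 500 bp from a start held it in 6.41% of 671 windows, so at this base composition the share was about as high away from starts. In replicate 1's own set the share of members with it was 6.28% and in replicate 2's 7.31%, which again share libraries and peaks with the pooled list. Of the 20 windows, 15 held 1 match, 4 held 2 and 1 held 3. The strongest were at sgll, with signals of 166 and 165 in the replicates, mtSSB, the mitochondrial single-stranded DNA-binding protein gene, with 116 and 134, and Uhg4, a snoRNA host gene, with 108 and 109. Obp99b had 83.0 and 102.2 and nxf4 104 and 84.0. These 5 peaks were named for their high pooled signal and do not stand for the 20. The median pooled signal of the 20 was 105, beside 96.2 for all members. Of the 20, 11 were in both own sets and 17 were upstream of the start.

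The DRE was in 13 member windows, 3.45% (Wilson 2.03 to 5.81), in 0.789% of the AT-rich peaks, 2.49% of those between divergent starts, 0.398% of the flanks and 2.82% of the starts without a peak. The interval of the members thus takes in the share at starts that had no peak. Of the members built from replicate 1's own set 1.93% held it, and of those from replicate 2's 4.23%. Alg3 (532 pooled) was the strongest member with it, followed by eEF1gamma, with 146 and 152 in the replicates, and Ufc1, the gene of a ubiquitin-like conjugating enzyme, with 77.0 and 92.6. p53, whose window holds the DRE more than once, had 61.6 and 50.6. A match to the DRE lay a median of 14.5 bp from the summit. Altogether 82 members held ACAGTG, the CTCF core or the DRE and 295 held none of them.

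The levels of other motifs depended on the windows set beside them. The TATA box, TATAAA, was in 28 member windows (7.43%), against 12.6% of the flanks, 13.0% of starts without a peak and 30.6% of the AT-rich peaks. The homeodomain word TAATTA was in 4.77%, against 6.23% of the flanks, 3.82% of starts without a peak and 14.2% of the AT-rich peaks. Both words hold only A and T, so the rule bears on their counts, as it does on those of words rich in G and C. GAGAG, the core of the GAGA factor's site, was in 11.4% of members, 13.3% of the flanks, 21.6% of starts without a peak and 5.92% of the AT-rich peaks. The Pho core GCCAT was in 20.2% of members, 18.0% of the flanks, 19.2% of starts without a peak and 9.47% of the AT-rich peaks. The E-box CAGCTG was in 5.04%, 4.91%, 8.28% and 0.986% of these sets, and the ETS word CCGGAA in 3.98%, 3.45%, 2.94% and 0.789%. For these 4 words the members were above the AT-rich peaks, while against the AT-poor windows they were near them or, for GAGAG and CAGCTG, below the starts without a peak. The initiator, which reads TCA, then G or T, then T, then C or T, was in 19.1% of members, 21.7% of starts without a peak and 28.6% of the AT-rich peaks. The TCT initiator, read as C or T, then CTTT, then C or T in each of the last places, was in 14.1% of members, 13.3% of starts without a peak and 17.6% of the AT-rich peaks. GGTCACAC, the core of motif 1, was in 3 windows (0.796%) and in 1.94% of starts without a peak.

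**Figure D5:**
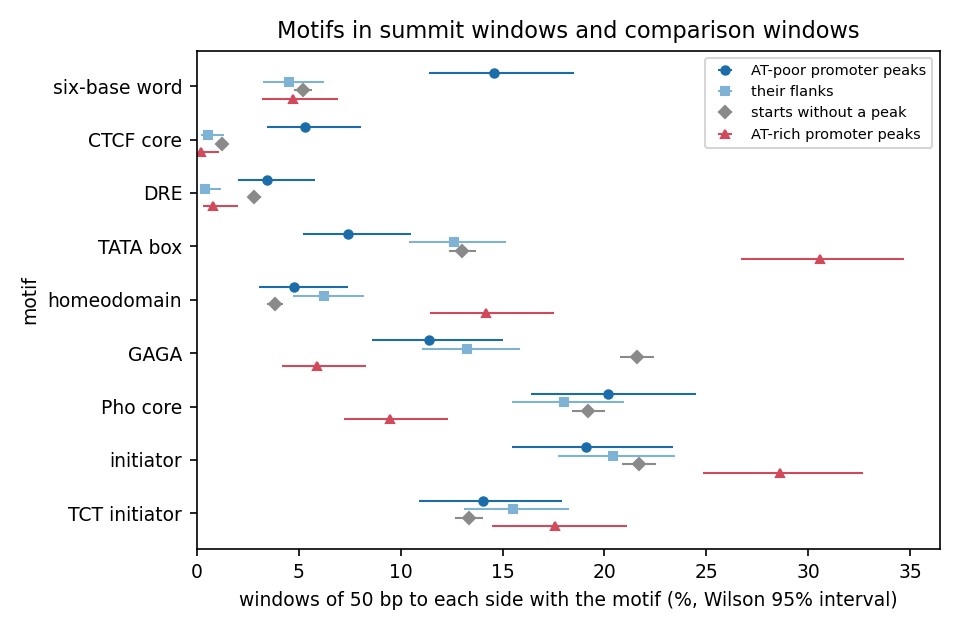
Share of summit windows with each motif (horizontal axis, %, points with Wilson 95% intervals for counting error) in members, their flanks, AT-poor windows at starts without a peak, and AT-rich promoter peaks; the six-base word is the one in 14.6% of the members. The members lie above the 3 other sets for that word and for the CTCF core, and the members' interval for the DRE takes in the starts without a peak. Windows at close starts of the same gene overlap, so the intervals of the starts without a peak are too narrow.

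Genes for cytoplasmic ribosomal proteins had members at a higher rate than coding genes at large. Of 72 such genes on the autosomes, 19 (26.4%) had a member within 500 bp of a start, where 3.13% of all 11772 autosomal coding genes did. Peaks between divergent starts were near 18 of the 72 (25%, against 6.96% of coding genes), and AT-rich peaks near 3 (4.17%, against 4.19%). The share differed between the replicates: the rule gave a member at 6 of the 72 (8.33%) from replicate 1's own set and at 15 (20.8%) from replicate 2's, where the shares of coding genes were 1.78% and 2.21%. It was 22.2% without the peaks whose replicate summits were missing or over 100 bp away. The list had been chosen with earlier results of these data known.

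Peaks at ribosomal protein genes sat close to the start. Of the 19 summits, 14 were upstream and 5 downstream, at 1 to 154 bp with a median of 33 bp, and 16 (84.2%) lay within 100 bp, against 36.3% of the other 358 members. Their share of A or T was 44.6% to 63.4% with a median of 54.5%. Their median pooled signal was 91.8, close to that of all members, and it ran from 23.2 to 561. Of the 19, 6 were in both replicates' own sets and 3 in neither, with 8 in that of replicate 1 and 14 in that of replicate 2. Among 17 with both signals, 13 were higher in replicate 2 and 4 in replicate 1, and the medians were 48.5 in replicate 1 and 57.4 in replicate 2. The other members were less uneven, with 188 of 347 higher in replicate 2. What set the replicates apart at these genes was not tested.

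RpL23A, described above, stood apart from the other ribosomal protein genes in both replicates. RpS4 had 84.3 in replicate 1 and 68.9 in replicate 2 (mean 76.6 ± 10.9, SD, n = 2), 39 bp upstream. RpL27A had 67.4 and 60.5, 34 bp upstream, and RpL8 had 49.0 and 72.8, 40 bp upstream. These were in both own sets, as were RpS12 (55.8 and 60.6) and RpL3 (48.5 and 53.3), whose summit was 1 bp past the start. RpL11 had no overlapping peak in replicate 1 and 72.8 in replicate 2, and RpL39, with 20.1 and 55.3, and RpS23, with 22.2 and 67.1, were also much higher in replicate 2. RpS29 went the other way, with 65.1 and 37.9. RpS16 had 63.1 and 11.8, but its peak in replicate 1 had its summit 187 bp away. RpL23A was thus the highest in both replicates, while the order of the other genes differed in part between them. How far the orders agree was not measured.

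The windows of the ribosomal protein genes held the TCT initiator in 9 of 19 cases (47.4%), beside 14.1% of all members, a count made after the data were seen. The TCT initiator is known from the starts of such genes, and their summits were close to the starts. The DRE was in 5 of the 19 windows, those of RpS7, RpS29, RpL27, RpL39 and RpL36A, which are 5 of the 13 members with it. ACAGTG was in 1, RpL23A, and the CTCF core in 0, which with 19 windows allows a share of up to 15.8%.

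The other lists of coding genes held 0 to 2 members each, to be read against the 3.13% of all coding genes. Mitochondrial ribosomal protein genes had 2 of 62 (3.23%), mRpL4 with signals of 46.8 and 48.7 and mRpL18, whose peak is nearest to the start of Taz, with 38.6 and 36.9. Translation initiation factors had 2 of 37 (5.41%), eIF6 and eIF3h (67.0 and 53.2), and proteasome subunits 2 of 42 (4.76%), Prosalpha3 (53.8 and 51.04) and Rpn5 (30.8 and 18.4). Rpn5's pooled signal was 8.24, and it is among the weak members described above. Oxidative phosphorylation had 0 of 70, which allows a share of up to 4.29%, and aminoacyl-tRNA synthetases had 0 of 30, which allows up to 10%. The shares of these lists were near that of all coding genes or rest on counts too small to tell them from it, and the difference from cytoplasmic ribosomal protein genes was not tested.

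Among the regulators, Trl, which encodes GAGA factor, was the 1 member of the lists of Polycomb and trithorax genes (1 of 26) and of insulator proteins (1 of 14), with signals of 106 and 93.8 for a summit 157 bp downstream. Cell cycle genes had 2 of 33. Dp, the partner of the E2F factors, had 170 and 124 for a summit 200 bp upstream, and Mcm2, a subunit of the replicative helicase, had 62.2 and 47.1. All 3 genes were in both own sets and were higher in replicate 1. The heat shock list had 1 of 20, Hsp83, the fly HSP90, with 57.9 and 124. The Hox and segmentation list had 1 of 29, ptc, the Hedgehog receptor, with 38.4 and 20.6, and cuticle proteins had 1 of 66, Cpr30B, with 37.6 and 35.9. Odorant and gustatory receptor genes had 0 of 105, which allows up to 2.86%, and replication-dependent histone genes had 0 of 111, which allows up to 2.70%. In both lists the count was also 0 for autosomal pooled peaks of any class, which 13.8% of all coding genes had. Their lack of peaks was thus not particular to the members.

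Of 3692 autosomal genes that are not protein-coding, 61 (1.65%) had a member within 500 bp of a start. Of 30 snRNA genes 4 (13.3%) had one: snRNA:U1:95Ca had signals of 38.2 and 84.6, snRNA:U2:34ABb 42.1 and 57.1, snRNA:U1:21D 46.7 and 38.3, and snRNA:7SKa 30.1 and 31.7. All 4 summits were downstream, and none was in both own sets. These genes have near-identical copies, and how the authors' processing placed reads between copies is not given in the sources used here, so their levels are uncertain. Of 238 snoRNA genes 9 (3.78%) were near 8 members, of which 5 had their nearest start at another gene, such as Uhg4, RpS12, RpS29 and RpL10Ab. Of 266 tRNA genes 4 (1.504%) were near a member, the strongest being tRNA:Tyr-GTA-1-8 (149 and 130), whose nearest start was that of CG8036.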

How the data were processed

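ChIP-seq peaks of CG4730-eGFP from 2 biological replicates of whole fly embryos were analysed. Per the labels, coordinates are on dm6 and sonicated chromatin of 200 to 800 bp was recovered with an antibody to GFP. Of the aligner and the peak caller, the name and version are not given in the sources used here. Ranked peaks and the subset kept at a threshold on the irreproducible discovery rate (IDR) were deposited for pooled and single replicates, with a conservative pooled subset. Each holds the deposited signal value of a peak, the deposited summit position in bp and, in the ranked lists, −log10 of the global IDR as the authors wrote it. The signal has no stated unit, so classes of peaks were compared within a list. The signals of the 2 replicates were also set side by side across their own lists, without rescaling. A difference in scale between these lists can therefore not be told apart from a difference between the replicates. The lists give no read depth, and 32 unnamed columns of the ranked lists on the compared inputs were not used.

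The pooled thresholded list was the main set. Its peaks passed a global IDR of 0.01. Starts came from Ensembl release 115 (18277 genes on 7 arms, 13968 coding) and sequence from NCBI's copy of the same assembly, whose arm lengths were checked against the peaks. A member was in a replicate where it overlapped that replicate's own thresholded set by at least 1 bp, and its replicate signal was that of the overlapping ranked peak with the nearest summit. Motifs were exact matches on both strands. Wilson intervals at 95% and limits from a count of 0 (3 counts) cover counting error only. The work ran under scipy 1.17.1, pandas 2.3.3, numpy 2.4.6 and Python 3.11.15, and the assignment of peaks, positions and motifs was tested on simulated data.

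The members and the gene lists were chosen with earlier results of these data known. Genes were named by a rule: the 15 strongest members in both own sets, the 4 weakest, the 2 on each side of the limit of 65%, up to 4 per gene list, up to 5 with a first-ranked 8-mer and up to 3 per frequent motif, with additional genes where a count is small or a sequence is shown. Nothing shows whether the replicates came from separate crosses. Alternatives were another set of peaks, a stricter IDR, other distances and windows, another limit and each replicate alone.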

Additional observations from a re-analysis of the deposited data

Results flagged for a closer look

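The pooled ranked list held 83 autosomal peaks that passed the IDR of the kept peaks but are absent from the thresholded list, and 16 of these met the rule for members. They lie outside the set that the report describes, which is why they stand here. The median of their pooled signals was 117, above the 96.2 of the members, and the strongest were near CG4297 (295) and CG6966 (253).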

How the results depend on the processing

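The 377 members became 170 at a global IDR of at most 0.001 and 207 to 260 in the replicates' own sets. The signal ratio to AT-rich peaks, 0.660, was 0.721 to 0.753 in the own sets, 0.705 in the conservative set, 0.727 at the stricter IDR, 0.732 with base composition read over 100 bp to each side and 0.616 with divergent starts up to 1000 bp apart, below 1 throughout. The share upstream, 69.2%, was 74.9% to 76.9% in the own sets, 71.3% in the conservative set, 78.8% at the stricter IDR, 71.5% within 250 bp of a start, 71.8% with the wider composition window, 65.8% under 60% A or T, 65.5% with 1000 bp between divergent starts and 70.8% without shifted summits. Of members 39.8% were in both own sets and 84.1% at the stricter IDR, and of members built in 1 replicate 62.7% to 73.9% overlapped the other's set. The IDR is a measure of reproducibility, so the higher share at the stricter IDR is in part built in. CACAGTGG, in 3.16% of the members on the arms of chromosome 3, was in 0.909% to 3.17% in the own sets, 1.19% at the stricter IDR and 5.79% in windows of 100 bp to each side. Ribosomal protein genes with a member, 26.4%, were 8.33% to 20.8% in the own sets, 16.7% in the conservative set, 13.9% at the stricter IDR and 16.7% with 1000 bp between divergent starts. The last 3 settings also held fewer members in all, with 324, 170 and 322 in that order. For them the share of all coding genes is not given, so a change relative to coding genes at large cannot be read. In the own sets that share was 1.78% and 2.21%, against 3.13% in the pooled set. The DRE share, 3.45%, was 1.93% to 4.23% in the own sets, 2.22% with the wider composition window and 2.17% with 1000 bp between divergent starts, and these lower values lie under the 2.82% at starts without a peak. For recovery and position the compared sets were not recomputed, and the causes of the moves were not tested. No paired analysis was possible because there is 1 group.

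Signal without a unit, 2 replicates and a control library that was not analysed limit these descriptions. For members with shifted summits the replicate values come from summits at another position. ACAGTG, the CTCF core and the leaving out of shifted summits were chosen after seeing the data.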
